A study of Mus musculus with 24 samples.

Results

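The genes described here are 10 genes of the neuromuscular junction and of the response of muscle to loss of its nerve: *Chrna1*, *Chrnb1*, *Chrnd*, *Chrng* and *Chrne*, which encode the subunits of the muscle acetylcholine receptor, *Musk*, the receptor kinase that organises the junction, the transcription factors *Myog* and *Runx1*, the adhesion molecule *Ncam1*, and *Gadd45a*, a stress-inducible nuclear protein. They were chosen by name, and every probe set annotated to 1 of them alone was taken, which gave 21 probe sets for 10 of the 12393 genes that have a probe set of their own on the array. RNA was from the gastrocnemius plus plantaris muscles of 6-week-old male mice, which were kept weight bearing (WB) or had their hind limbs unloaded (HU) for 6 days, a model of disuse in which the hind limbs carry no load and the nerve is left in place. The mice were wild type (B6129PF2/J), *Nfkb1*-/- (B6;129P2-Nfkb1tm1Bal/J), which lack the NF-κB subunit p50, and *Bcl3*-/- (FVB;129P2-Bcl3tm1Ver/J), which lack the p50 co-activator Bcl-3. Each genotype was studied WB and HU with 4 mice per group, 1 mouse to an array, 24 arrays in all. Both deletions were present in the whole animal, and the 3 genotypes were on 3 strain backgrounds, so that a difference between genotypes cannot be told apart from a difference between strains. The study asked which genes rise with unloading in wild type muscle and fail to do so without p50 or Bcl-3. On these same arrays it listed *Runx1* as such a gene for both, and *Chrna1*, *Chrnb1* and *Gadd45a* for Bcl-3 only. Those genes are therefore not independent evidence here.

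The adult muscle receptor is built of alpha, beta, delta and epsilon subunits, and the fetal receptor carries gamma in place of epsilon. In innervated adult fibres these genes are transcribed mainly by the few nuclei under the synapse, and electrical activity keeps them low elsewhere along the fibre. When the nerve is cut, myogenin, the product of *Myog*, binds E-boxes in the promoters of receptor subunit genes, the alpha, beta, gamma and delta genes are transcribed along the whole fibre, and *Runx1*, *Ncam1*, *Musk* and *Gadd45a* rise as well, while epsilon stays largely synaptic. Apart from *Chrne*, the 10 genes are therefore a common readout of lost nerve activity in muscle.

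The arrays fell on 2 intensity scales. The 16 wild type and *Nfkb1*-/- arrays had medians of 11.6 to 11.9 and the 8 *Bcl3*-/- arrays had medians of 81.1 to 86.8, so levels are not set against each other between *Bcl3*-/- and the other genotypes, and array scale, strain and genotype cannot be told apart for *Bcl3*-/- muscle. All 8 markers of the muscle fibre, such as *Acta1* and *Ckm*, were bright on every array, and their summed intensity ranged from 45247 to 49866 over the first 16 arrays. The test took in probe sets that exceeded an intensity of 20 on 4 or more of the 24 arrays. Of the 21 member probe sets 17 were tested, but only 6 of these reached 20 on 4 wild type or *Nfkb1*-/- arrays (those of *Chrna1*, *Chrnb1*, *Chrne*, *Musk*, *Myog* and *Gadd45a*), and the other 11 entered through the brighter *Bcl3*-/- arrays. For bulk muscle, more nuclei or cells that express a gene and more RNA in each of them cannot be told apart.

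The promoters of the 3 receptor subunit genes that rose in wild type muscle are shown because the E-box, CANNTG, is the element through which myogenin acts on receptor genes. The stretches are the 250 bases before the transcription start in RefSeq (GRCm38.p6), 5′ to 3′ on the strand of the gene, with E-boxes in capitals.
Chrna1, chr2:73580339-73580588, minus strand: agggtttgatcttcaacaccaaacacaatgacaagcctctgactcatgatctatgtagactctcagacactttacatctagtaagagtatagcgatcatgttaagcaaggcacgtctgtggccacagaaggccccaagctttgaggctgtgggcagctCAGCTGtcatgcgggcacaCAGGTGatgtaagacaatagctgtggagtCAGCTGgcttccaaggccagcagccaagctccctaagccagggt
Chrnb1, chr11:69795938-69796187, minus strand: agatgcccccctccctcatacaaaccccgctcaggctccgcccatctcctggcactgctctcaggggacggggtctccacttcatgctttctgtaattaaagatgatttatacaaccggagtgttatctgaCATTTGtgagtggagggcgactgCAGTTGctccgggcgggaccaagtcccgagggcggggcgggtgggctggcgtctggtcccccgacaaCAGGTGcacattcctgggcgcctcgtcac
Chrne, chr11:70619195-70619444, minus strand: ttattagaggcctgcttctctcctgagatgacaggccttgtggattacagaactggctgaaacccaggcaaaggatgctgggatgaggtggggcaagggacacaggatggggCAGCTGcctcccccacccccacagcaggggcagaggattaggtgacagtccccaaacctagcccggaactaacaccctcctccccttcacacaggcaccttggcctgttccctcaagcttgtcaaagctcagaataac
*Chrna1* has 3 E-boxes, which begin 92, 73 and 44 bases before the start, and the outer pair reads CAGCTG. *Chrnb1* also has 3, 119, 96 and 29 bases before its start, and none of them reads CAGCTG. *Chrne* has 1 E-box, a CAGCTG 138 bases before the start. Promoters were listed for 8 of the 10 genes, with 2 starts for *Runx1*. All 8 held an E-box, searched on both strands, before a start, against 66.2% of the 32851 listed promoters, and 4 held CAGCTG (*Chrna1*, *Chrng*, *Chrne* and *Musk*), against 13.0% of all. The Runx sequence TGTGGT, also searched on both strands, was in none of these windows and in 14.0% of all. These are matches of letters and were not tested as binding sites. *Chrnd* and *Ncam1* are named only.

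Unloading raised 3 of the 5 receptor subunits in wild type muscle, *Chrna1*, *Chrnb1* and *Chrne*, and raised *Chrna1* and *Chrnb1* in *Nfkb1*-/- muscle. *Chrnd* and *Chrng* stayed at low intensities. In *Bcl3*-/- muscle no member passed the test. Calls are at an adjusted p under 0.05 from limma, with Benjamini-Hochberg adjustment over all 19294 probe sets tested. In wild type muscle 3 of the 17 tested member probe sets were called higher and 0 lower, where 2.31% of all tested probe sets were higher, 1.66% lower and 3.97% changed in either direction. For *Nfkb1*-/- muscle 2 of 17 were higher and 0 lower, where 4.79% of all were higher, 6.59% lower and 11.4% changed. For *Bcl3*-/- muscle 0 of 17 were called by limma (2 at an unadjusted p under 0.05), where 7.59% of all were higher, 2.81% lower and 10.4% changed. Without wild type HU replicate 1, described further on, the counts were 3, 4 (*Chrne* and *Gadd45a* added) and 1 (*Chrnb1*), where 2.81%, 11.9% and 11.1% of all tested probe sets changed in that fit. The median log2 change over the 17 tested members was 0.07 in wild type muscle, 0.02 without *Nfkb1* and −0.02 without *Bcl3*, beside −0.01, −0.0013 and 0.02 for all tested probe sets. With only the brightest probe set of each gene the median was 0.40 in wild type muscle, 0.18 without *Nfkb1* and −0.0065 without *Bcl3*.

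*Chrna1* (1418852_at), the subunit that binds acetylcholine, read 67.1, 58.8, 61.5 and 50.6 in wild type WB muscle and 354, 80.8, 122 and 118 in wild type HU muscle. All 4 HU arrays lay above all 4 WB arrays, and HU replicate 1 lay well above the other 3. The log2 change was 1.26 ± 0.28 (SE, n = 4 per group), a 2.40-fold rise with an adjusted p of 0.0093 by limma, and it was 0.83 with an adjusted p of 0.016 without HU replicate 1. The call was lost with only the 2 groups in the fit (adjusted p = 0.099 by limma) and with 64 added to the intensities (log2 change 0.78, adjusted p = 0.071). In *Nfkb1*-/- muscle *Chrna1* read 52.8, 56.4, 51.7 and 50.8 WB and 81.5, 120.3, 74.9 and 119 HU. The groups did not overlap here either, and the log2 change of 0.87 ± 0.28 (SE, n = 4 per group) had an adjusted p of 0.041 by limma. That call was lost when any 1 of the *Nfkb1*-/- WB arrays or HU replicate 2 or 4 was left out, with adjusted p values of 0.070 to 0.12. *Bcl3*-/- muscle read 392, 368, 575 and 324 WB and 452, 495, 495 and 597 HU. These groups overlapped through WB replicate 3, and the log2 change was 0.32, with a 95% confidence interval from −0.24 to 0.89 and an adjusted p of 0.49 by limma.

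*Chrnb1* (1420682_at), the beta subunit, rose on every HU array of wild type and *Nfkb1*-/- muscle. It read 42.3, 48.3, 46.3 and 49.2 in wild type WB muscle and 152, 87.2, 98.5 and 92.6 in wild type HU muscle. The lowest HU array was well above the highest WB array, and HU replicate 1 was again the highest. The log2 change was 1.18 ± 0.13 (SE, n = 4 per group), a 2.26-fold rise with an adjusted p of 6.6e-06 by limma, and 1.00 without replicate 1. *Chrnb1* in *Nfkb1*-/- muscle read 46.4, 50.1, 46.8 and 49.5 WB and 83.5, 98.5, 90.6 and 88.7 HU, with no overlap and little spread. The log2 change was 0.90 ± 0.13 (SE, n = 4 per group) with an adjusted p of 0.00012 by limma. *Bcl3*-/- muscle read 392, 386, 439 and 327 WB and 448, 534, 545 and 470.4 HU. The groups did not overlap, as for 11.4% of all tested probe sets with HU above WB in this genotype, and the log2 change of 0.37 ± 0.13 (SE, n = 4 per group) had an adjusted p of 0.058 by limma. It was called, with adjusted p values of 0.011 to 0.049, without wild type HU replicate 1 or 2 or *Bcl3*-/- WB replicate 3.

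*Chrne* (1420560_at) encodes the epsilon subunit of the adult receptor. It read 18.3, 18.0, 18.7 and 14.4 in wild type WB muscle and 18.8, 25.0, 33.3 and 34.6 in wild type HU muscle. Here HU replicate 1, the highest array for *Chrna1* and *Chrnb1*, was the lowest of the HU arrays and barely above WB. The log2 change was 0.65 ± 0.16 (SE, n = 4 per group) with an adjusted p of 0.020 by limma, and 0.83 without replicate 1. The call was lost without WB replicate 4 or HU replicate 3 or 4, with adjusted p values of 0.072 to 0.087. It was also lost with only the 2 groups in the fit (adjusted p = 0.095 by limma), with 16 added to the intensities (log2 change 0.38, adjusted p = 0.088) and with 64 added (0.17, adjusted p = 0.99). *Nfkb1*-/- muscle read 17.4, 16.4, 15.8 and 17.7 WB and 26.2, 24.3, 21.2 and 20.4 HU. All HU arrays were above all WB arrays, and the log2 change of 0.45 ± 0.16 (SE, n = 4 per group) had an adjusted p of 0.072 by limma, which was 0.033 without wild type HU replicate 1 and 0.047 without *Bcl3*-/- WB replicate 4. *Bcl3*-/- muscle read 249.9, 275, 239.7 and 172 WB and 156, 194, 169 and 209.9 HU. The groups overlapped, the log2 change was −0.35, with a 95% confidence interval from −0.68 to −0.02, and the adjusted p was 0.17 by limma.

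The 2 other subunits gave low values. *Chrnd* (1420761_at), the delta subunit, ranged from 7.24 to 12.1 over the 16 wild type and *Nfkb1*-/- arrays, with a log2 change of 0.05 in wild type muscle (95% confidence interval −0.25 to 0.36), 0.12 in *Nfkb1*-/- muscle and −0.11 in *Bcl3*-/- muscle. *Chrng*, the fetal gamma subunit, has 3 probe sets. The brightest, 1449532_at, read 7.36 on wild type HU replicate 1 and 4.13 to 5.96 on the other wild type and *Nfkb1*-/- arrays, and its log2 change in wild type muscle was 0.19 (95% confidence interval −0.07 to 0.46). The other 2 fell under the intensity minimum and were not tested. One of them, 1452520_a_at, read 3.98 on wild type HU replicate 1 and 2.49 to 2.64 on the other wild type HU arrays, while 1427728_at read 2.84 there and 2.76 to 3.51 on the others. At such intensities a change in these subunits was not detectable unless large.

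**Figure D1:**
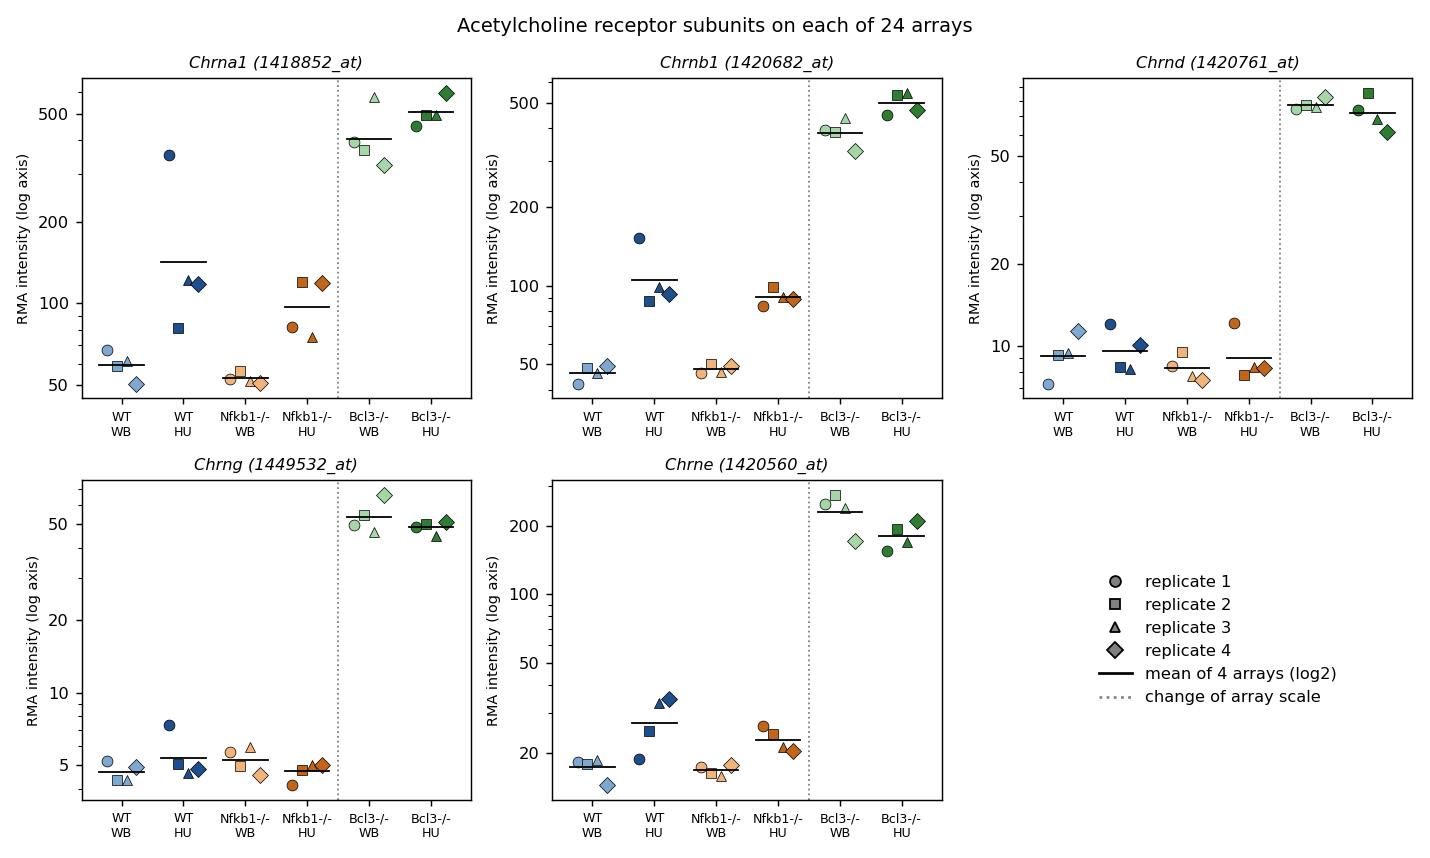
RMA intensity (log axis) of the 5 acetylcholine receptor subunits on each of 24 arrays, by group, with 1 symbol per replicate and a bar at the mean of the 4 log2 values. Wild type HU replicate 1 is the highest of its group for *Chrna1* (354) and *Chrnb1* (152) and the lowest for *Chrne* (18.8), and the *Bcl3*-/- arrays right of the dotted line are on another scale.

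*Musk* (1450511_at), the agrin-activated kinase that anchors the receptor, read 17.3, 18.0, 12.5 and 18.3 in wild type WB muscle and 25.1, 19.6, 17.9 and 18.8 in wild type HU muscle. The groups overlapped. Its log2 change was 0.30 in wild type muscle, 0.25 without *Nfkb1* and 0.27 without *Bcl3*, each with an SE of 0.14 (n = 4 per group) and adjusted p values of 0.24, 0.29 and 0.22 by limma. None passed the test, and the wild type change differed from that in *Nfkb1*-/- muscle by 0.06 (95% confidence interval −0.35 to 0.46) and from that in *Bcl3*-/- muscle by 0.03 (−0.37 to 0.44).

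*Myog* (1419391_at) encodes myogenin. It read 28.8, 18.2, 15.1 and 14.9 in wild type WB muscle and 67.2, 13.7, 14.5 and 10.3 in wild type HU muscle. HU replicate 1 was the highest of the 16 arrays, and the other 3 HU arrays were all below the lowest WB array. The log2 change was 0.06 with all arrays and −0.54 (adjusted p = 0.31 by limma) without replicate 1, so 1 array set the direction. *Nfkb1*-/- muscle read 35.5, 22.1, 17.0 and 18.9 WB and 17.4, 14.9, 11.2 and 20.8 HU, a log2 change of −0.51 with an adjusted p of 0.46 by limma. *Bcl3*-/- muscle read 174, 195, 249 and 189 WB and 93.6, 172, 155 and 112 HU. Here all HU arrays were below all WB arrays, as for 4.07% of all tested probe sets, and the log2 change of −0.63 ± 0.38 (SE, n = 4 per group) had an adjusted p of 0.31 by limma.

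*Runx1*, a transcription factor that protects denervated fibres from breakdown in the mouse, has 5 probe sets, and they disagreed. On 1422864_at it read 4.80, 4.48, 4.46 and 4.69 in wild type WB muscle and 31.7, 4.86, 5.06 and 6.30 in wild type HU muscle. On 1422865_at, which fell under the intensity minimum, it read 4.24, 3.40, 3.43 and 4.31 WB and 29.7, 4.58, 4.20 and 4.57 HU. On both probe sets 1 HU array stood far above all others, and the other 3 HU arrays were close to WB in level. The log2 change on 1422864_at was 0.86 ± 0.35 (SE, n = 4 per group) with an adjusted p of 0.18 by limma, and it was 0.22 with an adjusted p of 0.58 without replicate 1. In *Nfkb1*-/- muscle the same probe set read 3.92, 4.42, 4.38 and 4.73 WB and 4.37, 5.10, 5.76 and 8.64 HU. Replicate 4 was the highest there, also on 1422865_at at 8.68, and the log2 change was 0.41 (adjusted p = 0.55 by limma). The *Bcl3*-/- arrays read 15.9, 17.9, 22.0 and 20.7 WB and 23.0, 18.7, 22.0 and 18.2 HU, and the groups overlapped. The brightest *Runx1* probe set, 1452530_a_at, did not share the pattern. It ranged from 9.20 to 12.6 over the 16 wild type and *Nfkb1*-/- arrays and read 10.3 on wild type HU replicate 1. The remaining pair, 1427650_a_at and 1452531_at, had log2 changes of −0.04 and −0.12 in wild type muscle. The study listed 1422864_at as raised in wild type muscle and not in either knockout. By quantitative PCR it reported a rise of *Runx1* with unloading in wild type muscle, and no rise or a smaller one in the knockouts. It also reported more Bcl-3 and p50 binding at *Runx1* in unloaded wild type muscle, by chromatin immunoprecipitation.

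*Ncam1*, which spreads over the surface of denervated fibres, has 6 probe sets. On the brightest, 1450437_a_at, it read 16.6, 15.9, 14.7 and 15.2 in wild type WB muscle and 40.6, 17.0, 19.8 and 17.1 in wild type HU muscle. All 4 HU arrays were above WB, but replicate 1 carried most of the difference, since the log2 change of 0.50 ± 0.18 (SE, n = 4 per group, adjusted p = 0.12 by limma) was 0.20 without it. The adjusted p was 0.049 without HU replicate 2. This probe set in *Nfkb1*-/- muscle read 16.3, 16.8, 17.3 and 17.4 WB and 16.1, 17.1, 17.0 and 16.2 HU. There the log2 change was −0.03, with a 95% confidence interval from −0.40 to 0.33. In *Bcl3*-/- muscle it read 100.2, 95.1, 98.1 and 66.3 WB and 91.3, 85.1, 90.0 and 86.9 HU, a log2 change of −0.01. None of the other 5 *Ncam1* probe sets was highest on wild type HU replicate 1. On 1426864_a_at *Ncam1* was lower in *Nfkb1*-/- HU muscle by a log2 change of −0.32, with an adjusted p of 0.065 by limma, which was 0.0074 without *Nfkb1*-/- HU replicate 1 and 0.043 without *Bcl3*-/- WB replicate 2.

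*Gadd45a* (1449519_at), a nuclear protein that drives chromatin remodelling in denervated mouse muscle, read 23.3, 31.4, 20.6 and 24.8 in wild type WB muscle and 385, 45.6, 39.4 and 31.5 in wild type HU muscle. The HU and WB arrays did not overlap, but 2 arrays nearly touched (31.5 HU and 31.4 WB), and HU replicate 1 was 9.93 times the mean of the other 3 HU arrays. The log2 change was 1.47 ± 0.45 (SE, n = 4 per group) with an adjusted p of 0.066 by limma, and 0.64 with an adjusted p of 0.068 without replicate 1. The adjusted p was 0.047 without HU replicate 2 and 0.031 without HU replicate 4. *Gadd45a* in *Nfkb1*-/- muscle read 27.0, 24.1, 26.7 and 25.0 WB and 45.7, 86.1, 78.5 and 57.7 HU. All 4 HU arrays were clearly higher, with a log2 change of 1.34 ± 0.45 (SE, n = 4 per group). The adjusted p was 0.056 by limma, and it was 5.3e-05 when wild type HU replicate 1 was left out of the shared estimate of the spread, 0.040 without wild type HU replicate 4 and 0.047 without *Nfkb1*-/- HU replicate 1. The *Bcl3*-/- arrays read 278, 434, 336 and 343 WB and 370.3, 462, 474 and 359 HU. The groups overlapped, and the log2 change of 0.27 had a 95% confidence interval from −0.66 to 1.19.

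**Figure D2:**
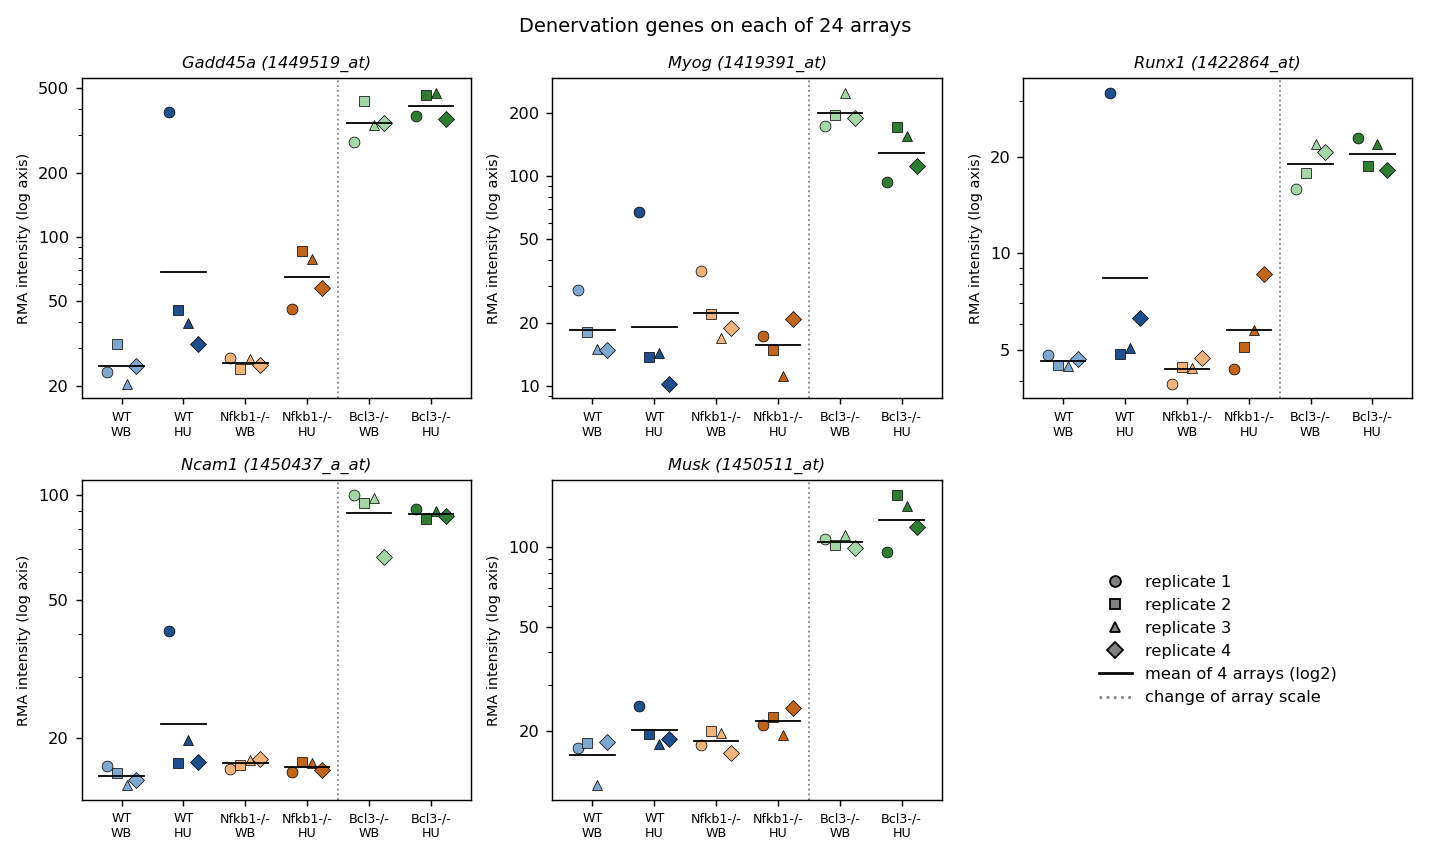
RMA intensity (log axis) of *Gadd45a*, *Myog*, *Runx1*, *Ncam1* and *Musk* on each of 24 arrays, by group, with 1 symbol per replicate and a bar at the mean of the 4 log2 values. Wild type HU replicate 1 stands apart for *Gadd45a* (385), *Myog* (67.2), *Runx1* (31.7) and *Ncam1* (40.6), while all 4 *Nfkb1*-/- HU arrays are raised for *Gadd45a* (45.7 to 86.1).

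HU arrays did not overlap WB arrays, with HU above, for the tested probe sets of *Chrna1*, *Chrnb1*, *Chrne*, *Runx1* (1422864_at), *Ncam1* (1450437_a_at) and *Gadd45a* in wild type muscle, where 5.86% of all tested probe sets did so (4.89% with HU below), and for *Chrna1*, *Chrnb1*, *Chrne* and *Gadd45a* in *Nfkb1*-/- muscle, where 7.71% did so (10.9% with HU below). An exact two-sided permutation test of 4 against 4 arrays gives p = 0.029, its smallest, whenever the groups do not overlap. This unadjusted p was therefore fixed by how these probe sets were picked and adds nothing to the separation. *Runx1* and *Ncam1*, which did not overlap in wild type muscle, did so in *Nfkb1*-/- muscle, where neither change passed the test.

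**Figure D3:**
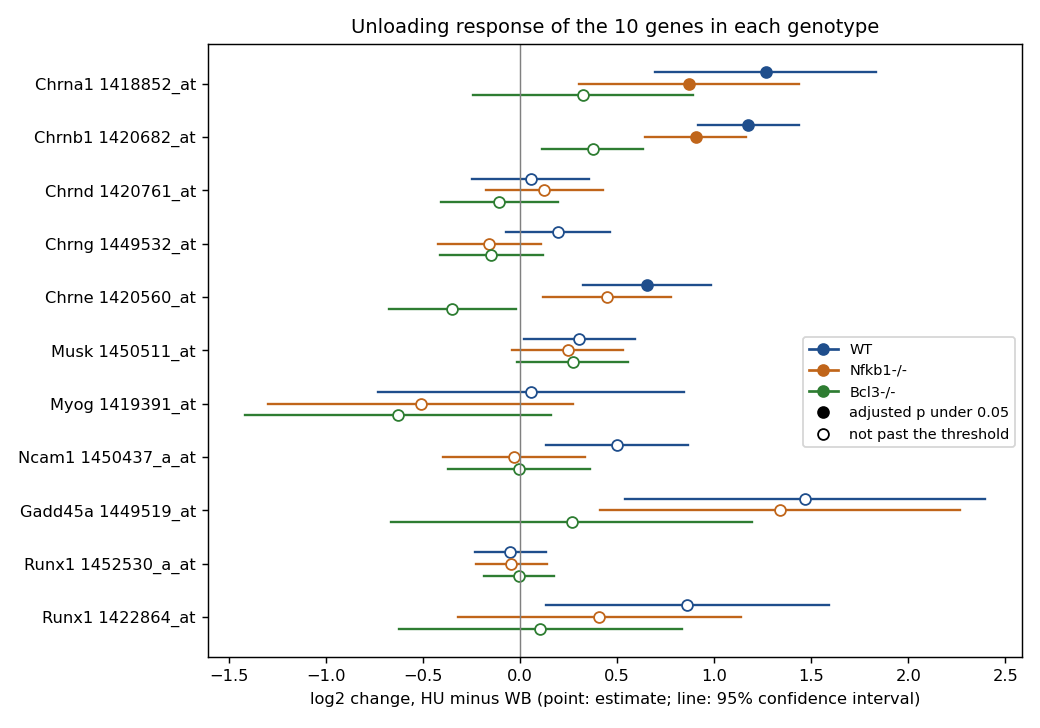
Log2 change, HU minus WB, of the main probe set of each gene and of *Runx1* 1422864_at in wild type, *Nfkb1*-/- and *Bcl3*-/- muscle, with points at the limma estimate, lines for the 95% confidence interval and filled points at an adjusted p under 0.05. *Chrna1* and *Chrnb1* are filled in wild type (1.26 and 1.18) and *Nfkb1*-/- muscle (0.87 and 0.90), *Chrne* in wild type muscle alone (0.65), and no point is filled for *Bcl3*-/-.

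Wild type HU replicate 1 set many of these values and was singled out after its values were seen. It was the highest of the 16 wild type and *Nfkb1*-/- arrays for 11 of the 21 member probe sets, belonging to 8 of the 10 genes, and for 9 of the 17 tested ones, whereas it was the highest for 9.63% of all tested probe sets. Relative to the wild type WB mean it read 15.4 for *Gadd45a*, 6.88 and 7.72 for *Runx1* (1422864_at and 1422865_at), 5.94 for *Chrna1*, 3.49 for *Myog*, 3.27 for *Chrnb1* and 2.61 for *Ncam1* (1450437_a_at). The mean of the other 3 HU arrays was 1.55, 1.17, 1.16, 1.79, 0.667, 1.99 and 1.15 of the WB mean for the same probe sets. The 2 receptor subunits that were called in both genotypes were thus 1.79 and 1.99 times the WB mean on average on the other 3 HU arrays. There the named probe sets of *Runx1* and *Ncam1* averaged 1.15 to 1.17 times the WB mean, and *Myog* was below it. All wild type HU arrays still lay above WB for *Runx1* 1422864_at and *Ncam1* 1450437_a_at. On this array 49 probe sets were more than 2 times as bright as on any of the other 15 wild type and *Nfkb1*-/- arrays, 4 of them tested probe sets of members (*Chrna1*, *Gadd45a*, *Runx1* 1422864_at and *Ncam1* 1450437_a_at). *Nfkb1*-/- HU replicate 2 had 28 such probe sets, none of a member, and no other array of these 16 had more than 3.

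**Figure D4:**
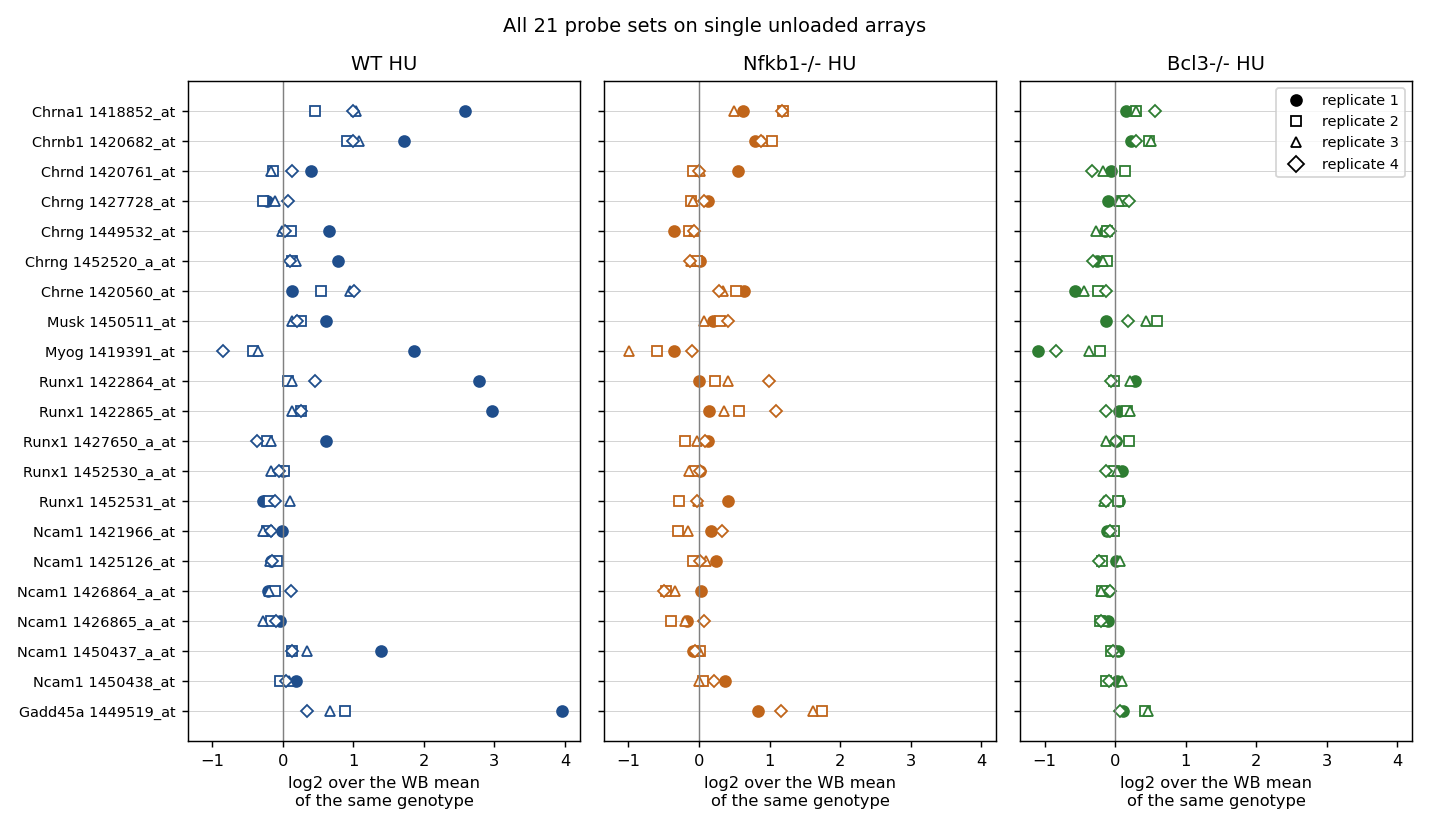
Log2 intensity of all 21 member probe sets on the 4 HU arrays of each genotype, less the mean log2 intensity of the WB arrays of that genotype, with replicate 1 filled. In wild type muscle replicate 1 lies apart for *Chrna1* (2.58), *Runx1* 1422864_at (2.78) and *Gadd45a* (3.96), and the *Bcl3*-/- arrays stay near 0 for most probe sets.

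Genes of other states and cell types on the same array were as follows, and their part in the members' values was not tested. The 31 listed genes of the denervation response, members left out, summed to 6464 on wild type HU replicate 1 against 3943 to 4479 on the other wild type HU arrays and 3434 to 3857 on the wild type WB arrays, and 10 of the 31 were highest there, among them *Sln*, the sarcoplasmic calcium pump inhibitor sarcolipin (1024 against 77.6 to 127), and *Ankrd1*, a titin-associated stress protein (300.2 against 64.2 to 94.2). On the *Nfkb1*-/- HU arrays this list summed to 3864 to 5565. Of 6 genes of the regenerating fibre 4 were highest on wild type HU replicate 1. Embryonic myosin *Myh3* read 30.7 there against 6.24 to 7.06 on the other wild type HU arrays. The list summed to 4326 there, against 765 to 4417 on the other HU arrays and 2540 to 3547 on the WB arrays of wild type. Most of that sum was *Actc1*, which read 3645 on replicate 1 and 373 to 3983 on the other wild type HU arrays. On wild type HU replicate 1 the 15 leukocyte and macrophage markers summed to 990.1 against 570 to 708 on the other wild type HU arrays. They summed to 606 to 1082 on the *Nfkb1*-/- HU arrays. Of these markers 5 were highest on wild type HU replicate 1, with galectin-3, *Lgals3*, at 212 against 34.4 to 62.9. The 7 satellite cell markers summed to 228 against 193 to 223, with *Pax7*, the defining marker, at 4.22. The 7 Schwann cell markers summed to 687 against 485 to 708, with *Sox10* at 16.6 and the nerve injury marker *Ngfr* at 15.8 against 5.98 to 7.02. The 8 muscle fibre markers summed to 49866 against 47504 to 49559. The 6 fibroblast markers summed to 5058 against 4259 to 5303, and 0 were highest there.

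The mean sums of the fibroblast, Schwann cell, regenerating fibre and denervation response lists differed between WB and HU in 1 direction in every genotype. Their part in the members' values was not tested. The regenerating fibre sums averaged 3181 WB and 2588 HU in wild type, 3347 and 1202 in *Nfkb1*-/- and 7922 and 4641 in *Bcl3*-/- muscle. These WB and HU sums overlapped in wild type muscle. *Actc1* alone made up 3029, 3206 and 6501 of these WB means. The median log2 change over the genes of this list was positive instead, at 0.53 for wild type muscle, 0.17 without *Nfkb1* and 0.0094 without *Bcl3*. For the Schwann cell list the median change was −0.03, 0.16 and 0.10 in the same order, while its mean sum rose in every genotype. The denervation response sums averaged 3660 and 4729 in wild type, 3820 and 4912 in *Nfkb1*-/- and 25059 and 26659 in *Bcl3*-/- muscle. These overlapped in both knockouts. The mean sum of the fibroblast markers was 6968 WB and 4825 HU in wild type, 7006 and 4169 in *Nfkb1*-/- and 36254 and 21154 in *Bcl3*-/- muscle, and 1, 4 and 4 of the 6 were called lower by limma, the 1 in wild type muscle being *Col1a2*, a collagen I chain (log2 change −0.79). The mean sum of the Schwann cell markers was 471 WB and 599 HU in wild type, 423 and 641 in *Nfkb1*-/- and 2685 and 3830 in *Bcl3*-/- muscle, with overlapping WB and HU sums in wild type and *Bcl3*-/- muscle, and 0, 1 and 1 of the 7 were called higher, the myelin gene *Mbp* in both knockouts (log2 change 0.84 and 0.96).

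The difference between the responses was tested directly. Between wild type and *Nfkb1*-/- muscle 0 of 17 members differed by limma (1 at an unadjusted p under 0.05), where 0.176% of all tested probe sets did, 0.119% with the larger value in wild type and 0.057% with the smaller. The wild type minus *Nfkb1*-/- difference of the log2 changes was 0.27 for *Chrnb1* (95% confidence interval −0.10 to 0.64), 0.39 for *Chrna1* (−0.41 to 1.20), 0.13 for *Gadd45a* (−1.19 to 1.44) and 0.53 for *Ncam1* 1450437_a_at (0.01 to 1.05), the last with an adjusted p of 0.39. Without wild type HU replicate 1 the difference was 0.09 for *Chrnb1*, −0.04 for *Chrna1*, −0.70 for *Gadd45a* and 0.23 for *Ncam1*, none of them called. Among the probe sets described in full the direction turned for *Chrna1*, *Gadd45a*, *Runx1* 1422864_at (0.45 to −0.19), *Myog* (0.57 to −0.03) and *Musk* (0.06 to −0.05).

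Between wild type and *Bcl3*-/- muscle 2 of 17 members differed, both with the larger rise in wild type muscle, where 0.264% of all tested probe sets differed in that direction, 0.803% in the other and 1.07% in either. The wild type arrays are shared by this test and the one before it. The difference of the log2 changes was 0.80 ± 0.18 for *Chrnb1* (SE, n = 4 per group, adjusted p = 0.029 by limma) and 1.00 ± 0.23 for *Chrne* (SE, n = 4 per group, adjusted p = 0.030 by limma). Both differences were called again without wild type HU replicate 1, at 0.62 and 1.18. Each call was close to its threshold, since *Chrnb1* was lost without wild type WB replicate 1 or 3 or *Bcl3*-/- HU replicate 1 or 4, and *Chrne* without wild type WB replicate 4, HU replicate 3 or 4, *Bcl3*-/- WB replicate 1 or 2 or HU replicate 1 or 3, with adjusted p values of 0.052 to 0.078. For *Chrna1* the difference was 0.94 (adjusted p = 0.28 by limma) and for *Gadd45a* 1.20 (adjusted p = 0.42 by limma), and they were 0.50 and 0.37 without wild type HU replicate 1. The WB means of *Bcl3*-/- on wild type muscle had a log2 slope of 0.89 over all probe sets. With 64 added to the wild type and *Nfkb1*-/- intensities, a setting meant for the scale, the difference was 0.25 for *Chrnb1* (adjusted p = 0.24 by limma) and 0.52 for *Chrne* (adjusted p = 0.027 by limma), where 9.05% of all tested probe sets were called.

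Before unloading, no member was called between *Nfkb1*-/- and wild type muscle. In the WB comparison 0 of 17 members were called by limma and 0 had an unadjusted p under 0.05, where 0.902% of all tested probe sets were called, 0.57% higher and 0.332% lower in *Nfkb1*-/- muscle. The WB arrays of the 2 genotypes overlapped for all 17, where 3.33% of all tested probe sets lay wholly above and 3.31% wholly below in *Nfkb1*-/- muscle. The differences, *Nfkb1*-/- minus wild type, ran from −0.16 for *Chrna1* to 0.28 for *Myog* on the log2 scale among the main probe sets.

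Other genes of the junction and of denervation gave a mixed picture. Both lists were drawn up with earlier results of these data known. Of 28 further genes of the postsynaptic apparatus 24 were tested, and in wild type muscle 0 were higher and 0 lower by limma. In *Nfkb1*-/- muscle the syntrophin gene *Sntb1* rose (log2 change 0.43) and its relative *Sntb2* fell (−0.35). In *Bcl3*-/- muscle the neuregulin receptor gene *Erbb3* (0.43) and the dystrobrevin gene *Dtna* (0.27) rose while *Lamc1*, a laminin chain (−0.44), and *Nes*, nestin (−0.37), fell. *Rapsn*, the receptor-clustering protein rapsyn, read 32.6 to 34.7 in wild type WB muscle and 39.9 to 46.1 in wild type HU muscle and was not called. The median log2 change of the 24 was −0.00052 in wild type muscle, −0.05 without *Nfkb1* and 0.08 without *Bcl3*, beside −0.01, −0.0013 and 0.02 for all tested probe sets.

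Of 36 further genes of the denervation response 30 were tested, and 4 rose and 1 fell in wild type muscle, 6 rose and 2 fell in *Nfkb1*-/- muscle and 4 rose and 0 fell in *Bcl3*-/- muscle. Of all tested probe sets 2.31% rose and 1.66% fell in wild type muscle, 4.79% and 6.59% without *Nfkb1* and 7.59% and 2.81% without *Bcl3*. *Sln* rose in all 3 genotypes, with log2 changes of 3.57 in wild type muscle, 2.03 without *Nfkb1* and 2.37 without *Bcl3*. *Ankrd1* rose in wild type (3.15) and *Nfkb1*-/- muscle (1.79), and its response was larger in wild type than in *Bcl3*-/- muscle by 2.74 (adjusted p = 0.047 by limma). The embryonic and atrial myosin light chain gene *Myl4* rose in wild type (1.17) and *Bcl3*-/- muscle (0.75), and *Tnfrsf12a*, the receptor of the cytokine TWEAK, rose in wild type muscle (1.29). *Fbxo32*, the ubiquitin ligase atrogin-1, rose in *Nfkb1*-/- muscle (1.85), as did *Cdkn1a*, a cell cycle inhibitor (1.52). In wild type muscle *Fbxo32* read 217 to 319 WB and 247 to 758 HU and was not called. The study listed *Fbxo32* and *Ankrd1* as raised in wild type muscle and not in either knockout. By quantitative PCR it reported no rise of them or a smaller one in the knockouts. Between the wild type and *Nfkb1*-/- responses 0 of the 30 differed by limma, where 0.176% of all tested probe sets did. *Gadd45b*, the relative of *Gadd45a*, rose in *Nfkb1*-/- (0.94) and *Bcl3*-/- muscle (1.01) and *Myf5*, a myogenic factor, in *Bcl3*-/- muscle (0.53). *Fgfbp1*, which sustains the junction in the mouse, fell in wild type (−1.26) and *Nfkb1*-/- muscle (−1.28), and *Igfbp5* fell in *Nfkb1*-/- muscle (−1.15). At rest *Nfkb1*-/- muscle had more *Fgfbp1* than wild type (1.32, adjusted p = 0.0035 by limma) and more *Agrn*, the gene of agrin, which activates the kinase MuSK (0.47, adjusted p = 0.050). The median log2 change of the 30 was 0.18 in wild type muscle, 0.13 without *Nfkb1* and 0.01 without *Bcl3*, beside −0.01, −0.0013 and 0.02 for all tested probe sets.

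The genes most like *Chrna1* over the 24 arrays, by the mean absolute difference of log2 intensities less the WB mean of the same genotype, were *Ctps2* (0.21), *Scn3b* (0.26), *Ctnnbl1* (0.26), *Map1lc3a* (0.26) and *Tnnt2* (0.26), out of 11098 genes compared. The genes most like *Runx1* 1422864_at were *Emb*, *Atp13a3*, *Plekha5*, *Myl12a* and *Aldh3a1*, all at 0.20. All 5 of the latter stood apart on wild type HU replicate 1 (log2 1.79 to 2.70 over the WB mean, against 0.01 to 0.74 on the other HU arrays). This *Runx1* probe set was picked after its values were seen, and the measure is a description over 24 arrays in 6 groups. It includes wild type HU replicate 1, so high values of these genes there follow from how they were picked.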

How the data were processed

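Gene expression was measured on 24 Affymetrix Mouse Genome arrays, 1 mouse each, in 6 groups of 4. Per the study's methods the authors read the scans with GCOS, summarised probes by RMA with quantile normalization in GenePattern. The deposited intensities are on a linear scale, as their values show. Log2 intensities were fitted with limma 3.58.1 in R 4.3.3 with 1 mean per group over all 24 arrays, so that the groups share 1 estimate of the spread, for probe sets above 20 on at least 4 arrays (19294 of 22626), with Benjamini-Hochberg adjustment over all of them and calls at 0.05. Within every genotype HU was compared with WB, and further contrasts were the differences between these responses and *Nfkb1*-/- minus wild type in WB. The study's t-test on linear intensities, called the methods' t-test, was an alternative, with and without the study's own filter. The main probe set of a gene was the brightest over the arrays. Other listed genes were named if called, up to 4 per contrast and direction. Members, lists and naming rules were chosen with earlier results of these data known. Probe sets were named from the platform annotation, and promoters came from RefSeq (GRCm38.p6). The number of arrays limits the precision. The limma p-values set a difference of means against a spread between mice that is estimated over all groups.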

Additional observations from a re-analysis of the deposited data

Results flagged for a closer look

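Of 126 sets of 4 arrays (21 probe sets in 6 groups) 11 held an array whose gap to its nearest neighbour took up more of the range of the set than Dixon's critical value for 4 samples allows, where chance flags about 1 in 20. Wild type HU replicate 1 was the high array in 4 of them, with *Gadd45a* at 385, *Runx1* at 31.7 on 1422864_at and 29.7 on 1422865_at, and *Chrng* at 3.98 on 1452520_a_at. Other high arrays were *Nfkb1*-/- HU replicate 1 for *Chrnd* (12.1), *Nfkb1*-/- WB replicate 4 for *Runx1* on 1422865_at (4.60) and *Bcl3*-/- WB replicate 2 for *Ncam1* on 1425126_at (24.3). Low arrays were wild type WB replicate 4 for *Chrne* (14.4), wild type WB replicate 3 for *Musk* (12.5) and *Bcl3*-/- WB replicate 4 for *Ncam1* on 1426865_a_at (42.2) and 1450437_a_at (66.3).

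The responses of wild type and *Bcl3*-/- muscle differed for *Chrnb1* by 0.80 and for *Chrne* by 1.00 on the log2 scale, each by the limma test of the difference itself.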

How the results depend on the processing

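No member value changed sign while called. Of 1067 member values under other settings 1038 stayed on their side of the threshold, 12 lost the call and 17 gained it, and with 1 array left out the numbers were 2415, 20 and 13 of 2448. For values not called in either fit the sign turned in 126. The 3 calls in wild type muscle became 1 with only the groups compared (where 1.31% of all tested probe sets were called) and 1 with 64 added to the intensities of wild type and *Nfkb1*-/- arrays (1.51%). The methods' t-test over the probe sets tested here gave 0, with q-values and with Benjamini-Hochberg adjustment. After the filter of the methods it gave 2 with q-values (*Chrnb1* and *Chrne*), as the study applied it, and 0 with Benjamini-Hochberg adjustment. That filter was added after seeing the data, as was quantile normalization of all 24 arrays together, which changed no count by more than 1.5 times. The 2 calls in *Nfkb1*-/- muscle became 4 with the filter applied within the arrays of each scale (23.0% of all), 4 with only the groups compared (11.4%), 4 with quantile normalization within each scale (13.3%), 5 with array weights (19.9%), 1 with trend and robust variance (11.4%), 1 with 16 added (7.85%) and 1 with 64 added (3.02%). The methods' t-test gave 3 with q-values and 1 with Benjamini-Hochberg adjustment, and after the filter of the methods 3 with either (*Chrna1*, *Chrnb1* and *Gadd45a*). The 0 calls in *Bcl3*-/- muscle became 2 with array weights (13.5% of all), 1 with 16 added (23.5%) and 4 with 64 added to the other arrays (35.3%). The 2 calls between the wild type and *Bcl3*-/- responses became 0 with only the groups compared and 1 with 64 added. The cause was not tested. With each array left out in turn the counts ranged from 2 to 5 in wild type (5 without HU replicate 2), 1 to 4 in *Nfkb1*-/- (4 without wild type HU replicate 1), 0 to 1 in *Bcl3*-/-, 0 to 2 between wild type and *Bcl3*-/- (0 without *Bcl3*-/- HU replicate 1) and stayed 0 in the other 2 contrasts.

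Over all probe sets, the calls in wild type muscle were 446 higher and 320 lower, and 152 and 101 with only the groups compared. The methods' t-test called 13 of 19294 with q-values and 0 after Benjamini-Hochberg adjustment, and of the 1508 that passed the filter of the methods 453 and 91.

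With the replicate number as a block the calls in *Nfkb1*-/- muscle fell to 1, since *Chrna1* had an adjusted p of 0.052 by limma, and no other count of member calls changed by more than 1.5 times. Of 12 pairs of arrays with the same number 2 had deviations that correlated above 0.1 (range −0.17 to 0.22) and 2 correlated best with their own number. The labels give only the number, and with so few arrays per group these correlations cannot exclude a pairing.

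Members near the floor of their array scale, *Chrnd*, *Chrng* and most probe sets of *Runx1* and *Ncam1*, entered the test through the brighter *Bcl3*-/- arrays, and the signal over background limits what can be seen of them.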
